A study of Mus musculus with 2 samples.

Results

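The secreted Wnt antagonists were the genes Wif1, Sfrp1, Sfrp2, Sfrp4, Sfrp5, Frzb, Dkk1, Dkk2, Dkk3, and Sost, which are 10 of the 32288 features counted in the mouse periosteal libraries. They were chosen by symbol, without use of their counts. Periosteal cells were taken from femurs and tibias of WT C57BL6 mice 4 weeks of age, sorted as CD45-CD31-Ter119-, and profiled by 10x 3′ scRNA-Seq. The 2 libraries, called library 1 and library 2 after their replicate numbers, are of the same condition. The number of mice behind a library is not given in the sources used here, so the spread between libraries may be technical. No treatment, genotype, or time point was compared, and the question asked of the data was which stromal cells carried each antagonist.

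Wnt proteins signal by binding Frizzled receptors together with the coreceptors LRP5 or LRP6, and secreted antagonists act outside the cell at different points of this step. The secreted frizzled-related proteins (encoded by Sfrp1, Sfrp2, Sfrp4, Sfrp5, and Frzb) and WIF1 bind the Wnt ligands themselves, whereas DKK1, DKK2, and sclerostin (the product of Sost) bind LRP5 and LRP6. DKK3 is a divergent member of the Dickkopf family. In bone, DKK1 and sclerostin are known as inhibitors of bone formation, and Frzb was first known as a cartilage gene.

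A barcode was kept with at least 500 genes, at least 500 unique molecular identifiers (UMIs), and at most 10% mitochondrial UMIs, which left 6276 barcodes in library 1 and 2893 in library 2 (92058894 and 30745895 UMIs). Despite the sort, 7600 of the 9169 kept barcodes carried hematopoietic markers, and 445 stromal barcodes remained in library 1 and 1124 in library 2. Of the kept barcodes, 7 sequences occurred in both libraries. Both labels say WT, yet library 2 held 6837 UMIs of the reporter EGFP and library 1 held 0, and the reporter tdTomato had 1482 and 4627 UMIs. Each level below is therefore given for the libraries apart. Some cells came almost wholly from library 2, and for them no value without that library exists.

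The stromal barcodes formed 15 clusters, which were named by marker lists that held no Wnt pathway gene. Osteoblast-like cells (94 barcodes in library 1 and 167 in library 2), osteogenic progenitor-like cells (48 and 81), chondrocyte-like cells (27 and 119), and Pi16+ fibroblast-like cells (16 and 177) had at least 10 barcodes in both libraries. The osteogenic progenitor-like name rested on 3 of 10 markers, none of them among the 10 leading genes, and cell cycle genes such as Birc5 and Mki67 were among that cluster's leading genes. Matrix fibroblast-like cells (3 and 108), tenocyte-like cells (2 and 109), Lepr+ stromal-like cells (54 and 9), and smooth muscle-like cells (4 and 19) lay mostly in a single library. Another 4 clusters stayed unnamed and are called by their leading gene. The Col10a1-led cluster had 67 and 74 barcodes, the Tcim-led cluster 17 and 47, the Gm26917-led cluster 33 and 45, and the Msmp-led cluster, in which Cytl1 and Prg4 also led, 0 and 78. Hemoglobin UMIs, a sign of red cell RNA, made up 1.03% of the matrix fibroblast-like total and 2.43%, 2.06%, and 1.47% of the Lepr+, osteogenic progenitor-like, and Col10a1-led totals of library 1. Leaving hemoglobin and mitochondrial UMIs out of the totals moved each leading level of a member by less than its counting interval.

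A level is the number of UMIs of a gene per 1000000 UMIs (CPM) summed over the cells of a class in a library, with an exact 95% Poisson interval that covers counting error only. Over sums of at least 10 barcodes the totals ran from 126621 to 3587000 UMIs. A count of 0 is drawn at the value of 3 UMIs. This stood for 23.7 CPM in smooth muscle-like cells of library 2 and for 0.836 CPM in chondrocyte-like cells of library 2. Levels were compared between classes for the same gene, not between genes.

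All 10 antagonists had UMIs in stromal barcodes, from 15 UMIs of Sost to 2908 of Wif1. The fibroblast-like classes held most UMIs of Sfrp2, Sfrp4, and Dkk2, although for Sfrp2 in library 1 this rested on 1 barcode with 21 of 50 UMIs. The osteoblast-like and osteogenic progenitor-like classes held most of Dkk1, and Frzb had its highest level in the Col10a1-led cluster. Sfrp5 lay almost wholly in chondrocyte-like cells in library 1 (97.7% of its UMIs), but in library 2 these held 38.7% and the Msmp-led cluster 31.7%. Wif1 had its highest level in the Msmp-led cluster and Sfrp1 in Lepr+ stromal-like or matrix fibroblast-like cells. At least 1 antagonist UMI was found in 86 of 94 and 120 of 167 osteoblast-like barcodes and in 13 of 16 and 132 of 177 Pi16+ fibroblast-like barcodes. Skeletal muscle-like barcodes, which were shallower (median 1968 and 2552 UMIs), had one in 0 of 71 and 1 of 63.

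**Figure D1:**
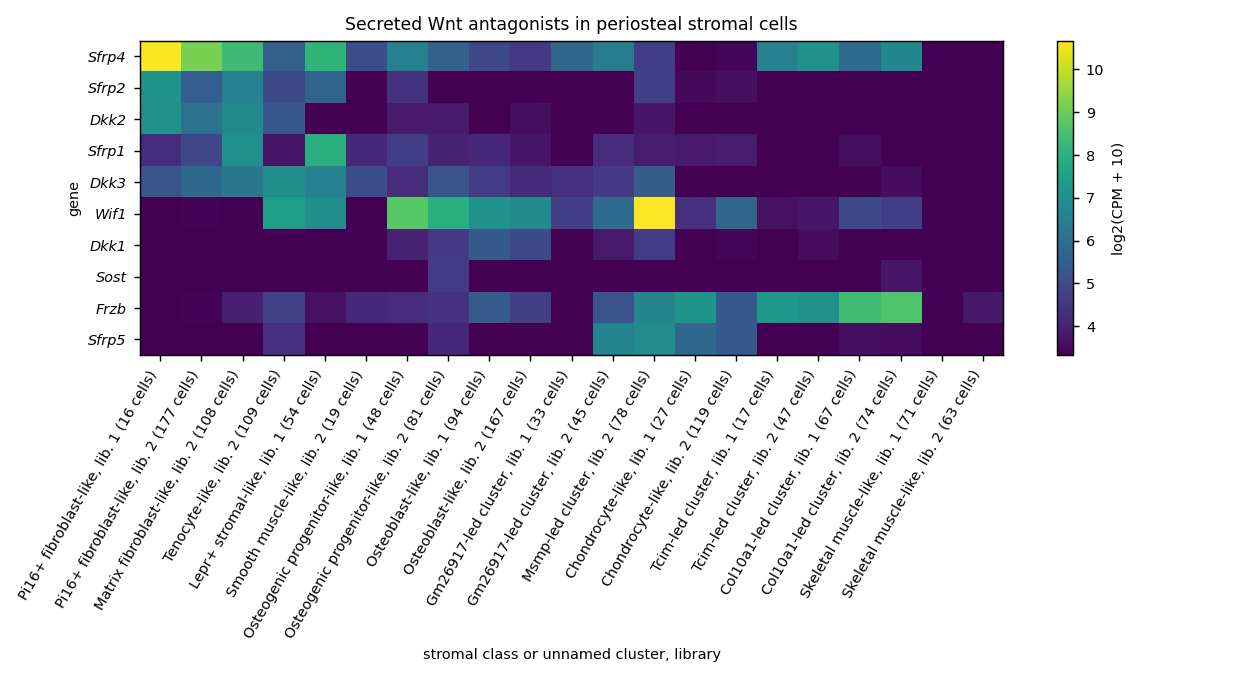
Heat map of the level of each antagonist, as log2(CPM + 10), in every stromal class or unnamed cluster with at least 10 barcodes in a library, with libraries side by side. Sfrp4 is brightest in the Pi16+ fibroblast-like columns (1560 and 563 CPM), Wif1 in the Msmp-led column (1621 CPM), and Frzb in the Col10a1-led columns (324 and 393 CPM).

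Sequence upstream of the annotated start was looked at for the members that moved together in the fibroblast-like classes, Sfrp2 and Dkk2, and for Sfrp5, which was called higher in chondrocyte-like cells. RefSeq windows on GRCm38.p6 were at hand for 7 of the 10 members, and 4 of these windows lay wholly outside the gene as annotated in GENCODE M21. The 250 bases before the start are chr3:83766071-83766320 (plus strand) for Sfrp2, chr3:132085042-132085291 (plus strand) for Dkk2, and chr19:42202253-42202502 (minus strand) for Sfrp5, printed 5′ to 3′ with motif matches in capitals.
Sfrp2: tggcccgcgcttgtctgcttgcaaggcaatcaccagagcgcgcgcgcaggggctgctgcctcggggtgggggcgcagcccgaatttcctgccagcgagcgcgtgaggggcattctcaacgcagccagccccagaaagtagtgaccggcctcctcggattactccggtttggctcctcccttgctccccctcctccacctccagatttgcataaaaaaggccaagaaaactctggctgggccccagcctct
Dkk2: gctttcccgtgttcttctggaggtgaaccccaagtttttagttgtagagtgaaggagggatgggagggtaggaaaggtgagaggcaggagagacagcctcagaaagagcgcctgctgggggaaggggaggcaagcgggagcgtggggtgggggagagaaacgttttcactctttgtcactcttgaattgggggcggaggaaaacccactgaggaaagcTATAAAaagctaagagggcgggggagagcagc
Sfrp5: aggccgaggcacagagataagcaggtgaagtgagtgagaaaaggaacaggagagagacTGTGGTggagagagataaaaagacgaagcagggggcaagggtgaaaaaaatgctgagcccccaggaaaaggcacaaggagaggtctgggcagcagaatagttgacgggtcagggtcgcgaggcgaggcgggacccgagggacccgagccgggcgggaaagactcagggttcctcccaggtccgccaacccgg
Each motif was searched on both strands. The TATA box was searched as TATAAA, the core of TCF/LEF factors as CTTTGA, that of RUNX factors as TGTGGT, and that of SOX factors as ACAATG. Dkk2 held TATAAA starting 32 bases before its start, a motif found in 12.4% of 32851 windows. Sfrp5 held the RUNX letters 192 bases before its start, as did 14.0% of windows somewhere. The TCF/LEF letters (13.8% of windows) and the SOX letters (10.7%) were absent from these 3 windows, and Sfrp2 held none of the 4 motifs. Sfrp2 and Dkk2 thus shared no searched motif in this stretch.

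The 4 skeletal classes with at least 10 barcodes in both libraries were compared by the quasi-likelihood test of edgeR on the summed UMIs, each class against the mean of the other 3, with Benjamini-Hochberg adjustment over the 10223 genes tested. The 4 comparisons share sums and are not independent. Skeletal muscle-like cells (71 and 63 barcodes) were left out, and 6 of the 7 lower member calls were lost when they were added. A member passed the expression filter through the class where it was high, and Sost did not pass. Of the 10 members, 4 were called higher and 3 lower in Pi16+ fibroblast-like cells, where 13.8% of all genes were called higher and 8.22% lower. Osteoblast-like cells had 2 members called higher and 1 lower (6.19% and 4.2% of all genes), osteogenic progenitor-like cells 2 higher and 0 lower (5.61% and 0.763%), and chondrocyte-like cells 2 higher and 3 lower (9.68% and 9.85%). The median log2 fold change of the 9 tested members was 1.06 in Pi16+ fibroblast-like cells, -0.44 in osteoblast-like, 1.19 in osteogenic progenitor-like, and -0.89 in chondrocyte-like cells, and that of all genes lay between -0.03 and 0.05. Where a class held 0 UMIs, its fitted fold change and those of classes set against it depend on the prior count of the model and are no bound.

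**Figure D2:**
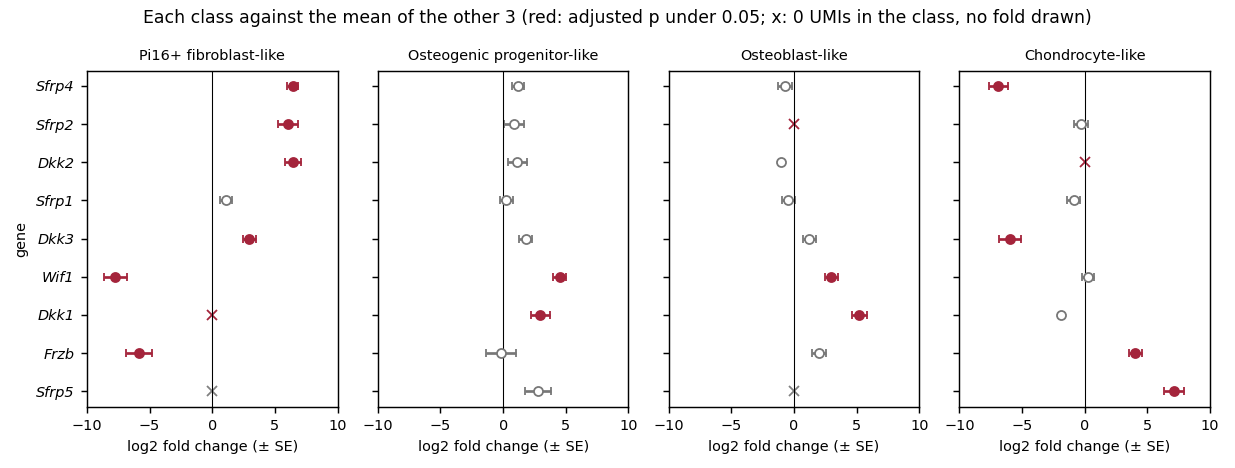
Log2 fold change (± SE) of each tested antagonist in each class against the mean of the other 3 classes, from edgeR on 2 sums per class. Red marks an adjusted p under 0.05, a cross a class with 0 UMIs (no fold drawn), and a circle without a bar a fold with no usable SE. Sfrp4 lies at 6.41 in Pi16+ fibroblast-like cells and Sfrp5 at 7.1 in chondrocyte-like cells.

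A second fit, added after the data had been seen, took every stromal class and unnamed cluster with a sum of at least 10 barcodes, and it tested 12321 genes, all 10 members among them. Matrix fibroblast-like, Lepr+ stromal-like, tenocyte-like, smooth muscle-like, and Msmp-led cells entered it with a single sum. Their differences have no replicate check and are given only as levels and ratios within a library. Of the clusters with both libraries, the Col10a1-led cluster had 2 members called higher (11.6% of all genes), and the Tcim-led and Gm26917-led clusters had 1 each (13.7% and 10.9%). The Gm26917-led call was that of Sfrp5. All 20 of its UMIs there lay in 1 barcode of library 2, and the call is not read as a difference between classes. Dkk3 and Sfrp1 were called lower in Tcim-led cells, which held 0 UMIs of both genes in each library. Values from it are named below as those of the fit over all stromal clusters.

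Sfrp4 (ENSMUSG00000021319, chr13:19623104-19632994), which encodes a secreted frizzled-related protein that binds Wnts, was a Pi16+ fibroblast-like gene in both libraries. Library 1 had 1560 CPM (1395 to 1739) there, from 10 of 16 barcodes, and library 2 had 563 CPM (529 to 598), from 91 of 177. A single barcode gave 136 of the 325 UMIs of library 1, and without it the level was 990 CPM. Both values lay above those of every other class in the same library.

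Next came Lepr+ stromal-like cells of library 1 (269 CPM, 221 to 324) and matrix fibroblast-like cells of library 2 (318 CPM, 282 to 358). Pi16+ fibroblast-like cells exceeded them 5.8-fold (4.66 to 7.28) in library 1 and 1.77-fold (1.55 to 2.03) in library 2. The Tcim-led cluster (85.8 and 125 CPM), the Col10a1-led cluster (49.2 and 97 CPM), the Gm26917-led cluster (46.3 and 76.4 CPM), and osteogenic progenitor-like cells (83.1 and 38.4 CPM) followed, and neighbours among these overlapped between libraries. Osteoblast-like cells (20.3 and 13.2 CPM) lay below them, and chondrocyte-like cells, at 0 and 0.836 CPM, lay lowest. Sfrp4 was higher by 6.41 ± 0.45 (log2, SE, n = 2 libraries) in Pi16+ fibroblast-like cells (edgeR adjusted p = 9.1e-06) and lower in chondrocyte-like cells (log2 -6.9 ± 0.77, adjusted p = 0.0002). In the fit over all stromal clusters, Col10a1-led cells were also called higher, by 1.47 (edgeR adjusted p = 0.011). Tcim-led cells, with more CPM in both libraries, were not called (log2 0.69, edgeR adjusted p = 0.21). The fit scales sums by TMM, unlike CPM, and its median log2 fold change over all genes was -0.4 in Col10a1-led and 0.16 in Tcim-led cells. The cause of this difference in order was not tested, and the call does not place Col10a1-led cells above Tcim-led cells.

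Sfrp2 (ENSMUSG00000027996, chr3:83766321-83774316), of the same Wnt-binding family, had 50 UMIs in library 1 and 185 in library 2, and 54.0% and 76.8% of them lay in the Pi16+ and matrix fibroblast-like classes. In Pi16+ fibroblast-like cells library 1 had 130 CPM (85.4 to 189) and library 2 had 36.0 CPM (27.8 to 45.8). The library 1 value rested on 3 barcodes, of which 1 gave 21 of 27 UMIs. Without it the level was 30.6 CPM from 6 UMIs, below that of Lepr+ stromal-like cells of library 1 (41.9 CPM, 17 UMIs). The leading class of Sfrp2 in library 1 thus depended on 1 barcode. Matrix fibroblast-like cells of library 2 reached 86.6 CPM (68.3 to 108), 2.41-fold (1.71 to 3.4) the Pi16+ level of that library.

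Lepr+ stromal-like cells of library 1 held 41.9 CPM (24.4 to 67.1) of Sfrp2 and tenocyte-like cells of library 2 held 22.4 CPM (13.7 to 34.6). Osteoblast-like, Col10a1-led, Tcim-led, and Gm26917-led cells had 0 Sfrp2 UMIs in both libraries. Pi16+ fibroblast-like cells were called higher (edgeR log2 6.04 ± 0.8, adjusted p = 0.00081) and osteoblast-like cells lower (adjusted p = 0.026). The lower call rested on a class at 0 and was lost when only barcodes with at most 5% mitochondrial UMIs were kept (adjusted p = 1.0).

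Sfrp1 (ENSMUSG00000031548, chr8:23411502-23449632), a further frizzled-related Wnt binder, had its highest level in a different class in each library. Lepr+ stromal-like cells of library 1 held 244 CPM (198 to 297), with a UMI in 34 of 54 barcodes. The 9 Lepr+ barcodes of library 2 held 105 CPM (28.5 to 268), from 4 UMIs that all lay in 1 barcode. The 3 matrix fibroblast-like barcodes of library 1 held 0 UMIs, with an upper limit of 99.4 CPM. The libraries thus do not show that the source of Sfrp1 differed between them. Matrix fibroblast-like cells of library 2 held 120 CPM (97.9 to 145), with a UMI in 28 of 108 barcodes.

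Pi16+ fibroblast-like (9.6 and 20.2 CPM), osteogenic progenitor-like (15.7 and 6.77 CPM), osteoblast-like (7.81 and 3.39 CPM), and chondrocyte-like cells (4.4 and 4.74 CPM) had less Sfrp1. Each neighbour in this order overlapped the next. None of the 4 comparisons called Sfrp1, and the difference nearest to a call was that of Pi16+ fibroblast-like cells (edgeR log2 1.06 ± 0.48, adjusted p = 0.15). With at most 5% mitochondrial UMIs allowed it was called (log2 1.53, adjusted p = 0.029). Within library 1 the Lepr+ level was 15.5-fold (7.27 to 39.7) that of osteogenic progenitor-like cells, and within library 2 the matrix fibroblast-like level was 5.93-fold (4.04 to 8.88) the Pi16+ level, with intervals that cover counting error only.

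**Figure D3:**
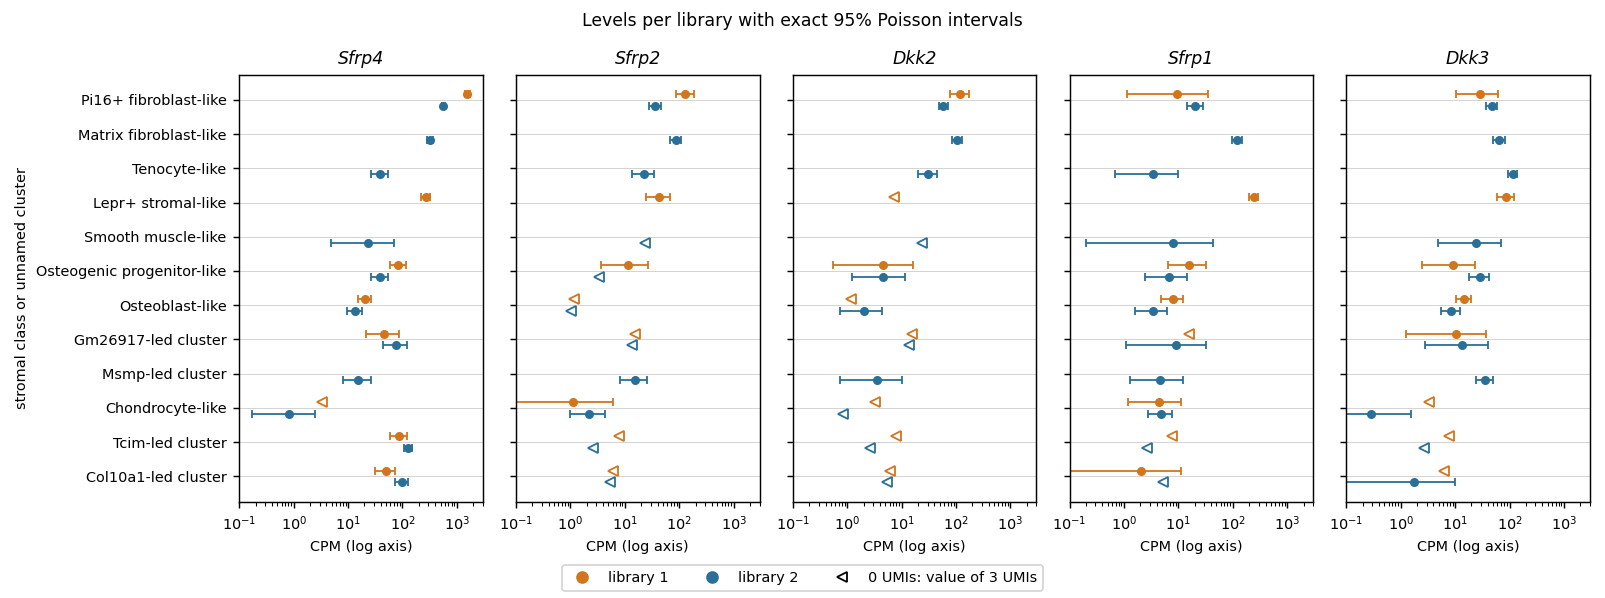
Levels of Sfrp4, Sfrp2, Dkk2, Sfrp1, and Dkk3 in CPM (log axis) by class, a point per library with its exact 95% Poisson interval; an open triangle marks 0 UMIs and stands at the value of 3 UMIs. Sfrp4 and Dkk2 are highest in the fibroblast-like rows of both libraries, while Sfrp1 is highest in Lepr+ stromal-like cells of library 1 (244 CPM) and matrix fibroblast-like cells of library 2 (120 CPM).

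Frzb (ENSMUSG00000027004, chr2:80411970-80447625), which encodes the frizzled-related protein known from cartilage, was highest in the Col10a1-led cluster, where Col10a1 is the collagen gene of hypertrophic cartilage. Library 1 had 324 CPM (275 to 379) there, from 47 of 67 barcodes, and library 2 had 393 CPM (343 to 449), from 51 of 74. The Tcim-led cluster followed with 140 and 127 CPM, below the Col10a1-led cluster by ratios of 2.31 (1.68 to 3.21) and 3.1 (2.5 to 3.85). EGFP was also highest in these clusters of library 2 (5103 and 1566 CPM) and had 0 UMIs in library 1. Whether Frzb levels were related to the reporter was not tested.

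Chondrocyte-like cells of library 1 held 129 CPM (106 to 154) of Frzb and those of library 2 held 30.7 CPM (25.2 to 37.0), values that overlapped with the Tcim-led cluster on the upper side and with osteoblast-like cells (34.0 and 16.3 CPM) on the lower. In library 1 a single chondrocyte-like barcode gave 66 of 117 UMIs, and without it the level was 59.2 CPM. The Msmp-led cluster, which only library 2 held, had 91.5 CPM (72.3 to 114) of Frzb, from 29 of 78 barcodes. This was above the chondrocyte-like level of that library. Pi16+ fibroblast-like cells held 0 UMIs in library 1 and 1 in library 2. Frzb was higher in chondrocyte-like cells (edgeR log2 4.04 ± 0.54, adjusted p = 0.00085) and lower in Pi16+ fibroblast-like cells (log2 -5.84 ± 1.01, adjusted p = 0.0029). For osteoblast-like cells the log2 fold change was 1.99 ± 0.57 (edgeR adjusted p = 0.058). Under the replicate block by library it was 1.83 (adjusted p = 0.028), and it was called in 5 of 11 alternatives in all. The fit over all stromal clusters called the Col10a1-led cluster higher by 5.64 ± 0.41 (edgeR adjusted p = 6e-07) and also called the Tcim-led cluster and chondrocyte-like cells higher (adjusted p = 0.0012 and 0.0013).

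Sfrp5 (ENSMUSG00000018822, chr19:42197971-42202252), the Wnt binder of this family with the fewest UMIs in library 1 (43), was found in chondrocyte-like cells of both libraries. Library 1 had 46.2 CPM (33.3 to 62.4), from 7 of 27 barcodes, and library 2 had 30.9 CPM (25.5 to 37.3), from 34 of 119. In library 1, 1 barcode gave 30 of 42 UMIs, and without it the level was 13.9 CPM. Pi16+ fibroblast-like, osteoblast-like, and Tcim-led cells had 0 UMIs in both libraries.

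Library 2 held Sfrp5 in further places, each of them carried by few barcodes. In the Msmp-led cluster the level was 107 CPM (85.9 to 131), from 8 of 78 barcodes, with 47 of 91 UMIs in 1 of them. This was 3.45-fold (2.58 to 4.59) the chondrocyte-like level of that library, and 52.4 CPM remained without that barcode. In the Gm26917-led cluster 1 barcode gave all 20 UMIs. In a cluster of 28 barcodes with B cell markers, which was not used as a class, 1 barcode gave all 48 UMIs. Sfrp5 was higher in chondrocyte-like cells by 7.1 ± 0.78 (edgeR adjusted p = 0.00076), but DESeq2 gave 6.68 ± 3.79 with an adjusted p of 0.27. Pi16+ fibroblast-like and osteoblast-like cells, which are part of the reference, were at 0 UMIs, so the size of this fold depends on the prior count.

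Wif1 (ENSMUSG00000020218, chr10:121033960-121100650), whose product also binds Wnts but is not of the frizzled-related family, was highest in cells that only library 2 held. In the Msmp-led cluster its level was 1621 CPM (1536 to 1708), with UMIs in 65 of 78 barcodes and no more than 135 of 1382 UMIs in any of them. This cluster gave 59.4% of the stromal Wif1 UMIs of library 2. Among its other leading genes was Prg4, which encodes lubricin.

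In library 1 the highest Wif1 level was that of osteogenic progenitor-like cells, at 422 CPM (364 to 487), and in library 2 these held 239 CPM (208 to 274). Osteoblast-like cells held 124 CPM (111 to 139) and 102 CPM (90.4 to 114), below both values of the progenitor-like class. Lepr+ stromal-like cells of library 1 held 111 CPM (81.0 to 149), and tenocyte-like cells of library 2 held 159 CPM (134 to 187). Chondrocyte-like cells differed between libraries, with 9.9 CPM (4.53 to 18.8) and 44.0 CPM (37.4 to 51.5). Pi16+ fibroblast-like cells held 0 and 1 UMIs.

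The share of barcodes with a Wif1 UMI ran against the level, with 75.5% and 52.1% of osteoblast-like barcodes but 52.1% and 46.9% of osteogenic progenitor-like barcodes. Osteoblast-like barcodes were deeper (median 28043 and 17226 UMIs, against 6714 and 4449). When every barcode was thinned to 1000 UMIs, the expected shares were 11.5% and 8.11% against 25% and 17.1%. Wif1 was called higher in osteogenic progenitor-like cells (edgeR log2 4.5 ± 0.49, adjusted p = 0.00077) and osteoblast-like cells (log2 2.99 ± 0.51, adjusted p = 0.0057) and lower in Pi16+ fibroblast-like cells (log2 -7.73 ± 0.94, adjusted p = 0.00041). Within library 2 the Msmp-led level was 6.77-fold (5.86 to 7.86) that of osteogenic progenitor-like cells, by counting error only.

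Dkk1 (ENSMUSG00000024868, chr19:30545863-30549665), which encodes the Dickkopf protein that blocks LRP5 and LRP6, was found mostly in osteoblastic cells. All 85 stromal UMIs of library 1 and 80.9% of those of library 2 lay in osteoblast-like and osteogenic progenitor-like cells. Osteoblast-like cells of library 1 had 32.0 CPM (25.5 to 39.8) and those of library 2 had 21.7 CPM (16.7 to 27.7). In library 2, 1 barcode gave 25 of 64 UMIs, and without it the level was 13.3 CPM.

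Osteogenic progenitor-like cells held 6.74 CPM (1.39 to 19.7) and 13.5 CPM (7 to 23.7) of Dkk1, below the osteoblast-like values of both libraries as counted. In library 2 the osteoblast-like level without its top barcode (13.3 CPM) was not above 13.5 CPM. Without their own top barcode (6 of 12 UMIs), osteogenic progenitor-like cells of library 2 held 6.83 CPM. The ratio of the 2 classes was 4.76 (1.57 to 23.5) in library 1 and 1.6 (0.855 to 3.26) in library 2, where it was within counting error. The Msmp-led cluster held 14.1 CPM (7.27 to 24.6) from 4 barcodes. Pi16+ fibroblast-like and Col10a1-led cells had 0 UMIs in both libraries, and Lepr+ stromal-like cells had 0 in library 1. Dkk1 was called higher in osteoblast-like cells (edgeR log2 5.21 ± 0.61, adjusted p = 0.00072) and lower in Pi16+ fibroblast-like cells (adjusted p = 0.011), the latter lost at a clustering resolution of 0.4 and without integration. The call in osteogenic progenitor-like cells (log2 2.97 ± 0.75, edgeR adjusted p = 0.047) held in only 6 of 9 alternatives. It was lost under the replicate block by library (edgeR adjusted p = 0.054) and under the DESeq2 Wald test (adjusted p = 0.13).

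Dkk2 (ENSMUSG00000028031, chr3:132085292-132180304), whose product binds the same coreceptors, lay in other cells than Dkk1. Pi16+ fibroblast-like cells of library 1 held 120 CPM (77.7 to 177), those of library 2 held 58.3 CPM (47.8 to 70.5), and matrix fibroblast-like cells of library 2 held 105 CPM (84.5 to 129). A single Pi16+ barcode gave 12 of the 25 UMIs of library 1, and without it the level was 66.2 CPM. The Pi16+ and matrix classes gave 89.3% and 82.6% of the stromal Dkk2 UMIs. Osteoblast-like cells, the leading class of Dkk1, held 0 UMIs of Dkk2 in library 1 and 6 UMIs, all in 1 barcode, in library 2.

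In library 2 the matrix fibroblast-like level of Dkk2 was 1.8-fold (1.35 to 2.4) the Pi16+ level and 3.47-fold (2.24 to 5.54) the tenocyte-like level (30.2 CPM, of which 1 barcode gave 18 of 27 UMIs). Lepr+ stromal-like cells of library 1, which carried Sfrp1, Sfrp2, and Sfrp4, had 0 UMIs of Dkk2. Chondrocyte-like cells had 0 UMIs in both libraries and were called lower (edgeR adjusted p = 0.01). Dkk2 was higher in Pi16+ fibroblast-like cells by 6.44 ± 0.66 (edgeR adjusted p = 0.00022).

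Sost (ENSMUSG00000001494, chr11:101962458-101967015), which encodes the osteocyte protein sclerostin, was barely detected. Library 1 held 0 stromal UMIs and library 2 held 15. Osteogenic progenitor-like cells gave 13 of these from 2 of 81 barcodes, with 12 UMIs in 1 of them, and the Col10a1-led cluster gave the other 2. Osteoblast-like cells had 0 UMIs in both libraries, which allows a level of up to 1.44 and 1.25 CPM by counting error. Without the barcode that held 12 UMIs, the osteogenic progenitor-like level of library 2 was 1.13 CPM. The fit over all stromal clusters called Sost higher in this class. That call rests almost wholly on this barcode and is not read as a difference between classes.

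**Figure D4:**
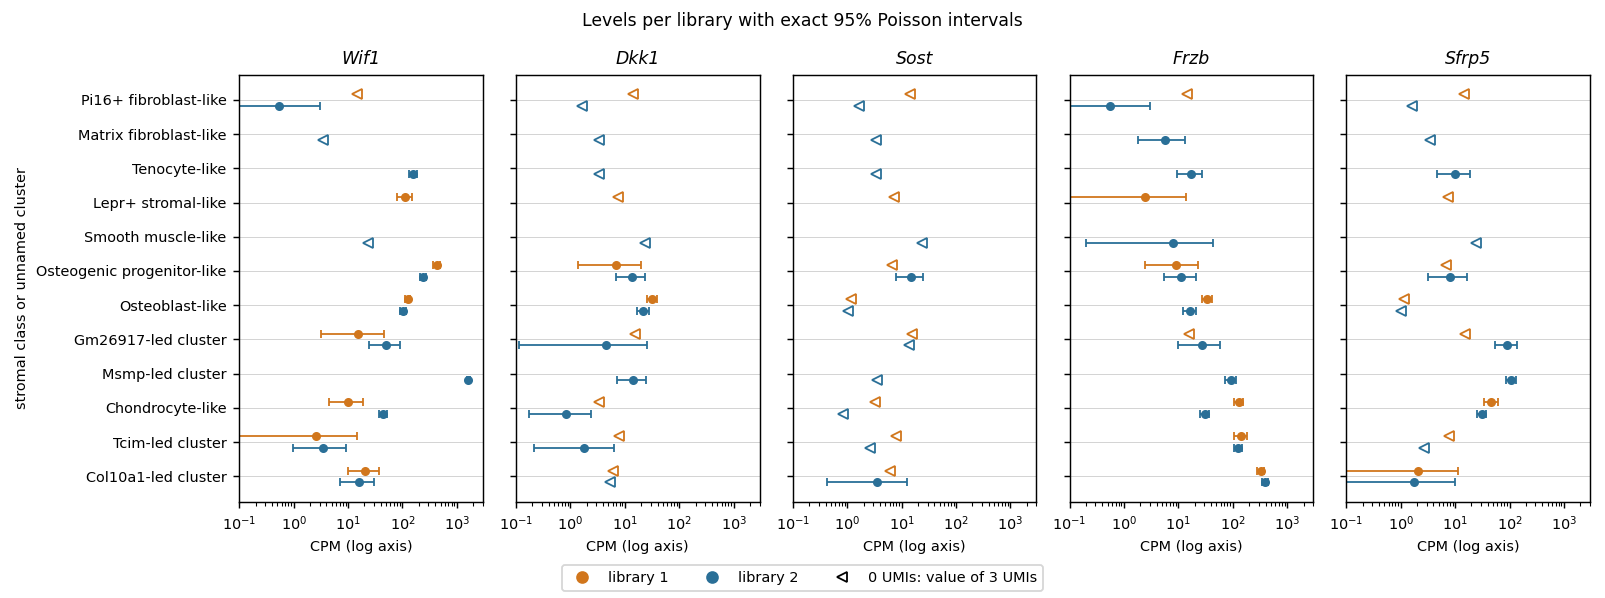
Levels of Wif1, Dkk1, Sost, Frzb, and Sfrp5 in CPM (log axis) by class, a point per library with its exact 95% Poisson interval; an open triangle marks 0 UMIs and stands at the value of 3 UMIs. Wif1 reaches 1621 CPM in the Msmp-led cluster, Dkk1 is highest in osteoblast-like cells (32.0 and 21.7 CPM), and Frzb in the Col10a1-led cluster (324 and 393 CPM).

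Dkk3 (ENSMUSG00000030772, chr7:112116017-112159057), the divergent Dickkopf gene, was spread over many classes. Tenocyte-like cells of library 2 held 114 CPM (93.1 to 139), with a UMI in 51 of 109 barcodes, and Lepr+ stromal-like cells of library 1 held 86.3 CPM (60.1 to 120). Matrix fibroblast-like cells of library 2 held 65.0 CPM (49.2 to 84.2), and Pi16+ fibroblast-like cells held 28.8 CPM (10.6 to 62.7) and 46.9 CPM (37.5 to 57.9). The tenocyte-like level exceeded the matrix fibroblast-like level 1.76-fold (1.26 to 2.47). The Msmp-led cluster, which only library 2 held, had 35.2 CPM (23.7 to 50.2) of Dkk3, from 24 of 78 barcodes.

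Osteogenic progenitor-like (8.98 and 28.2 CPM), Gm26917-led (10.3 and 13.5 CPM), and osteoblast-like cells (14.5 and 8.46 CPM) overlapped for Dkk3. A single barcode gave 14 of the 25 UMIs of osteogenic progenitor-like cells of library 2. Chondrocyte-like cells held 0 and 1 UMIs and Tcim-led cells 0 in both libraries. Dkk3 was called higher in Pi16+ fibroblast-like cells (edgeR log2 2.95 ± 0.51, adjusted p = 0.0025) and lower in chondrocyte-like cells (log2 -5.96 ± 0.87, adjusted p = 0.001). Within library 1 the Lepr+ level was 3.0-fold (1.25 to 8.72) the Pi16+ level, by counting error only.

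**Figure D5:**
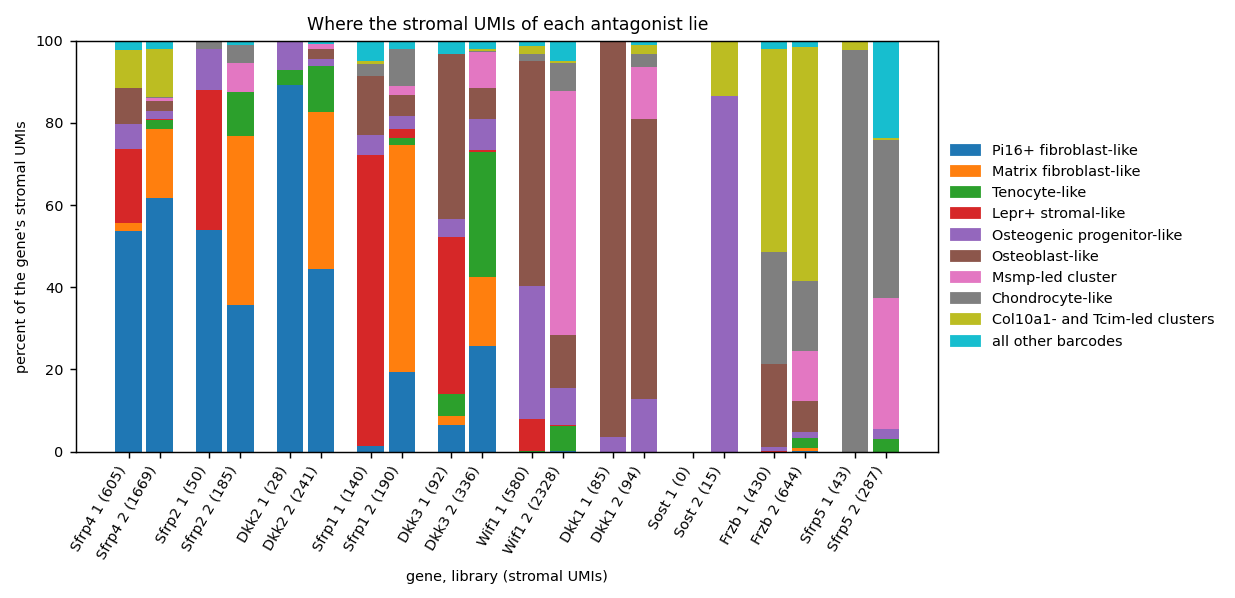
Percent of each antagonist's stromal UMIs found in each class, stacked for library 1 and library 2, with the number of UMIs under each bar. Dkk1 is nearly all osteoblast-like in library 1, and Wif1 of library 2 lies mostly in the Msmp-led cluster (59.4%). Sfrp1 lies mostly in Lepr+ stromal-like cells in library 1 (70.7%) and in matrix fibroblast-like cells in library 2 (55.3%). The libraries differ in barcodes of these classes (Lepr+ 54 and 9, matrix fibroblast-like 3 and 108), so these shares do not show a change of source.

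B cell-like barcodes (2678 in library 1 and 1337 in library 2, median 3850 and 4004 UMIs) were taken as the reference for free RNA. Between 0% and 0.524% of them had a UMI of Wif1, Sfrp1, Sfrp2, Sfrp4, Sfrp5, Frzb, Dkk1, Dkk2, or Sost. For Dkk3 the shares were 1.49% and 2.09%, but many of its UMIs there lay in a single B cell-like cluster, so that these were not read as background. Sfrp4 UMIs were in 5.31% and 4.14% of the deeper erythroid-like barcodes (median 15704 and 12950 UMIs), or 0.126% and 0.103% when thinned to 1000 UMIs. The shares of leading classes lay above these, for example 62.5% and 51.4% of Pi16+ fibroblast-like barcodes for Sfrp4 (33.6% and 23.5% when thinned) and 70.1% and 68.9% of Col10a1-led barcodes for Frzb (26.5% and 31.0%).

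Within a class, the antagonists were mostly found together about as often as their shares gave, although barcodes differ in depth, which raises joint counts. In Pi16+ fibroblast-like cells of library 2, Sfrp4 and Dkk2 shared 21 barcodes where 20.1 were expected, and Sfrp2 and Dkk2 shared 7 where 2.64 were expected. In tenocyte-like cells of library 2, Wif1 and Dkk3 shared 27 barcodes where 16.4 were expected. In chondrocyte-like cells of library 2, Wif1 (38 barcodes) and Frzb (37) shared 3 where 11.8 were expected, whereas Sfrp5 and Frzb shared 11 where 10.6 were expected. In osteoblast-like cells Wif1 and Dkk1 shared 21 barcodes in library 1 (17.4 expected) and 14 in library 2 (11.5 expected). These counts are a description without a test.

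The genes whose levels ran most like those of each member were taken over the 8 sums of the fit, as Pearson r of log2(CPM + 10), a description over 4 classes that share libraries. For Dkk1 they were Col24a1 (r = 0.99), Ccdc194 (0.984), and Enpp6 (0.983), for Dkk2 Atf5, Nox4, and Kcp (0.997, 0.997, and 0.996), and for Dkk3 Carhsp1, Kremen1, and Col3a1 (0.966, 0.964, and 0.957). For Sfrp4 they were Capn1, Fam171a2, and Ptpra (0.998, 0.995, and 0.995), and for Sfrp2 Agfg1, Grk5, and Dst (0.995, 0.99, and 0.989). For Sfrp5 they were Dlk2, Il17b, and Ncmap (1.0, 0.999, and 0.997), and for Frzb Pde4dip, P4hb, and Scarb1 (0.988, 0.971, and 0.966). Wif1 ran with Tmem176b, Spp1, and Rnps1 (0.975, 0.967, and 0.964) and Sfrp1 with Ube2l6, Lmo2, and Mief1 (0.98, 0.976, and 0.953). Over the 19 sums of all stromal clusters the leading genes were Omd for Wif1 (0.768), Ms4a4d for Sfrp1 (0.95), and Fxyd3 for Frzb (0.92), while Col24a1 again led for Dkk1 (0.955) and Nox4 for Dkk2 (0.983).

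The rest of the pathway was read from fixed lists of 58 genes, of which 32 passed the filter. In Pi16+ fibroblast-like cells 6 were called higher and 9 lower, in osteoblast-like 6 and 1, in osteogenic progenitor-like 4 and 0, and in chondrocyte-like 10 and 7. Over all genes the shares called higher and lower were 13.8% and 8.22% in Pi16+ fibroblast-like and 6.19% and 4.2% in osteoblast-like cells. They were 5.61% and 0.763% in osteogenic progenitor-like and 9.68% and 9.85% in chondrocyte-like cells. Near these shares were the higher count in Pi16+ fibroblast-like cells and the lower counts in osteoblast-like and osteogenic progenitor-like cells. The other counts lay above them, and no set test was run. The list medians of the log2 fold change were 0.04, 0.16, 0.6, and 0.17. Notum, a secreted enzyme that inactivates Wnts and the only gene tested of the 5 other secreted antagonists, was called higher in osteoblast-like (28.9 and 39.9 CPM) and chondrocyte-like cells (edgeR adjusted p = 0.047 and 0.04) and lower in Pi16+ fibroblast-like cells (adjusted p = 0.014).

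Among the Wnt ligands, Wnt2 (edgeR log2 8.1, adjusted p = 0.00082) and Wnt10b (log2 3.64, adjusted p = 0.0014) were higher in Pi16+ fibroblast-like cells. Sfrp4, Sfrp2, and Dkk2 were called higher in the same class, although matrix fibroblast-like cells of library 2 had higher levels of Sfrp2 and Dkk2. Wnt4 (171 and 143 CPM in osteogenic progenitor-like cells, 120 and 130 CPM in chondrocyte-like cells) was higher in both of those classes (edgeR adjusted p = 0.0025 and 0.00092), and Wnt5b was higher in chondrocyte-like cells (adjusted p = 0.00075). The R-spondins, secreted proteins that strengthen Wnt signals, also differed by class. Rspo2 was higher in Pi16+ fibroblast-like cells (edgeR adjusted p = 0.0015), and Rspo4 in chondrocyte-like cells (adjusted p = 0.00023). Rspo3 was higher in chondrocyte-like and osteogenic progenitor-like cells (edgeR adjusted p = 0.002 and 0.0038) and lower in Pi16+ fibroblast-like cells (adjusted p = 0.0028). Its level in Lepr+ stromal-like cells was 809 CPM in library 1 and 627 CPM in the 9 barcodes of library 2. These cells were not among the 4 compared classes and entered only the fit over all stromal clusters, with a single sum.

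Of the receptors, Fzd4 was higher in Pi16+ fibroblast-like cells (edgeR adjusted p = 0.0026). The coreceptor gene Lrp5 (32.4 and 31.1 CPM) was higher in osteoblast-like cells (edgeR adjusted p = 0.014), the class with the highest Dkk1. Lrp4, which encodes a sclerostin-binding protein, was higher in osteoblast-like cells (edgeR adjusted p = 0.012) and was also called higher in osteogenic progenitor-like cells. Kremen1, which encodes a receptor for Dickkopf proteins, was lower in chondrocyte-like cells (edgeR adjusted p = 0.012). Tcf7, a transcription factor gene of the pathway, was higher in osteoblast-like and osteogenic progenitor-like cells (edgeR adjusted p = 0.00031 and 0.02), and Lef1 was higher in chondrocyte-like cells (adjusted p = 0.018). Of the feedback and target genes, 6 were tested, and the shares over all genes are those given above. Chondrocyte-like cells had 1 called higher and 2 lower, Apcdd1 and Nkd2 (median log2 fold change 0.12). Osteoblast-like cells had 2 higher, Apcdd1 and Tcf7, and 0 lower (median 1.08). Osteogenic progenitor-like cells had 1 higher and 0 lower (median 1.83). Pi16+ fibroblast-like cells had 0 higher and 2 lower, Lef1 and Tcf7 (median -0.33).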

How the data were processed

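Counts were made by the authors in Cell Ranger 6.1.2, and the deposited values are raw UMI counts of each gene in each barcode, neither normalized nor pooled. The submitters' processing notes name mm10, whereas the methods name a human genome. Reads of near-identical genes may be lost. The members and lists were chosen with earlier results of these data known.

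Kept barcodes were integrated by CCA in Seurat 5.3.0 (3000 variable genes, 30 anchor dimensions, 15 principal components) and grouped by Louvain clustering (resolution 0.8), hematopoietic clusters were removed, and the rest was integrated and clustered again. The 10 members and 58 other Wnt genes were held out of the variable genes and markers. A marker counted at a log2 fold of 1 with a UMI in 20% of cells. A name needed 3 markers and at least as many of them among the 10 leading genes as any other list had there, a rule set after the clusters were seen. The Col10a1-led cluster failed the second part. Scrublet called 124 barcodes in library 1 and 1 in library 2, where it did not work, so doublets stayed in.

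The UMIs of a class in a library were added up and tested with edgeR 4.0.16 (filterByExpr, TMM, quasi-likelihood, threshold 0.05). The test had been tried on simulated sums that were drawn independently, which does not cover sums that share a library. DESeq2 1.42.0 was an alternative. The SE printed with an edgeR fold is the absolute log2 fold change divided by the square root of its F statistic. The class sums of a library hold different barcodes of the same library. Their deviations from the class means were correlated over genes (Pearson r from 0.19 to 0.421), so the library number was tried as a replicate block. Named genes are the members, the called genes of the Wnt lists, and the 3 genes most like each member. Leading genes of clusters were named after their values were seen. Intervals are at 95% (exact Poisson or exact binomial), and ratios have exact conditional intervals.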

Additional observations from a re-analysis of the deposited data

Results flagged for a closer look

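Outside the stromal barcodes, Dkk3 stood out in hematopoietic barcodes of both libraries. In the cluster led by Vpreb1, Dntt, and Igll1, which are genes of early B cells, Dkk3 had 24.6 CPM (15.6 to 36.8) in library 1, from 19 of 188 barcodes, and 16.6 CPM (9.67 to 26.6) in library 2, from 17 of 204. All other hematopoietic barcodes held 0.341 and 0.916 CPM, with upper limits of 0.489 and 1.54 CPM. Part of this lay in further B cell-like clusters. In library 1 the cluster led by Igll1, Bfsp2, and Myl10 held 1.69 CPM (0.811 to 3.11). The cluster led by H2afx, Hist1h2ae, and Myl4 held 1.72 CPM (0.786 to 3.26) there. Neutrophil-like, monocyte/macrophage-like, and T/NK cell-like barcodes held 0 Dkk3 UMIs in both libraries. The difference has no control sample beside it, and its cause was not tested.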

How the results depend on the processing

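Over the 4 comparisons 10 member differences were called higher and 7 lower. The higher calls numbered 8 to 15 over the alternatives and the lower calls 5 to 7, except in the fits that took in further classes. With skeletal muscle-like cells added, 1 member difference and 1277 genes were called lower, and in the fit over all stromal clusters 2 and 1001, against 7 and 2354. The cause was not tested. No called difference changed sign. The calls of Wif1 in osteoblast-like and osteogenic progenitor-like cells, Dkk1 in osteoblast-like cells, Frzb in chondrocyte-like cells, and Sfrp4, Sfrp2, Dkk2, and Dkk3 higher in Pi16+ fibroblast-like cells held under each alternative that gave these classes. With skeletal muscle-like cells added, the lower calls of Dkk2, Dkk3, and Sfrp4 in chondrocyte-like, Sfrp2 in osteoblast-like, and Wif1 and Dkk1 in Pi16+ fibroblast-like cells were lost, while Frzb and Dkk3 in osteoblast-like, Dkk3 and Sfrp4 in osteogenic progenitor-like, and Sfrp1 in Pi16+ fibroblast-like cells were called higher. The call of Frzb lower in Pi16+ fibroblast-like cells was lost at resolution 0.4 (log2 -2.91, edgeR adjusted p = 0.095), as was that of Dkk1, which was also lost without integration, and osteogenic progenitor-like cells could not be formed in these settings. Frzb in osteoblast-like cells was called in 5 of 11 alternatives. The replicate block changed only the 2 calls given for Dkk1 and Frzb among members, and moved the counts of all genes to 4691 higher and 3431 lower. Leaving out a library left 1 sum per class, hence values without a test, of which 7 of 36 moved by more than 1 SD of the libraries without replicate 1 and 20 of 36 without replicate 2. Depth limits what is said of Sost and of classes at 0.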

Other observations

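Sfrp4 was also seen in hematopoietic barcodes. In the cluster led by Car1, C1qtnf12, and Gm15915, Sfrp4 had 4.33 CPM (3.52 to 5.26) in library 1, from 75 of 434 barcodes, against 0.318 CPM in the other hematopoietic barcodes. In library 2 the cluster held 43 barcodes and 2.69 CPM (0.987 to 5.86), against 0.568 CPM with an upper limit of 1.12 CPM, so that the intervals overlapped.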
